A study of Mus musculus with 10 samples.

Results

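The genes described here encode the complement and coagulation factors of blood plasma, 42 of the 47729 genes in the deposited table. They were chosen by gene symbol from a list of 18 complement members and 24 coagulation members, and every symbol matched 1 row. They were measured in livers of Etnppl knockout (KO) mice, in which the gene was removed throughout the body, and of wild-type (WT) mice. Etnppl encodes ethanolamine-phosphate phospho-lyase, which breaks down phosphoethanolamine. All mice were female and were kept on chow for 8 weeks, followed by 10 weeks of fat-rich food in which fat supplied 45% of the kilocalories. There were 5 KO and 5 WT libraries of poly(A)-selected RNA, 1 per liver sample. The sources used here do not give the strain, the deleted part of Etnppl or the age at harvest. Nor do the labels state that the 5 samples of a genotype are 5 animals, so the spread behind each p-value may be technical.

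Complement and coagulation are cascades of plasma proteins, mostly made by hepatocytes. Most of their proteases are secreted inactive, and many are cleaved by the one before. Complement starts from antibodies, from sugars on microbes or spontaneously, meets at the cleavage of C3 and ends in a pore in the target membrane. Coagulation ends in thrombin, which turns fibrinogen into fibrin, and plasmin later dissolves the clot. Serpins and other plasma proteins hold both cascades in check. Several vitamin K-dependent clotting factors carry modified glutamates that bind calcium and membranes.

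Values are FPKM, fragment counts scaled to transcript length and library size, so levels of different genes can be set side by side per length. Depth, read from the size of the smallest steps in FPKM, was 21000000 to 28300000 fragments in each library. Etnppl was at 8.69 ± 1.16 FPKM in KO livers and 36.9 ± 11.5 FPKM in WT livers (mean ± SD, n = 5 each), without overlap, so each library matched its label. The KO mean was 23.6% of the WT mean, so some Etnppl RNA was still counted in KO livers. Hepatocyte markers were abundant in every library, with a summed level of 82263 to 93799 FPKM over 11 genes in KO livers and 74903 to 86771 FPKM in WT livers. The 8 Kupffer cell and macrophage markers summed to 214 to 312 FPKM in KO livers and 240 to 366 FPKM in WT livers. The 6 megakaryocyte and platelet markers summed to 1.75 to 4.49 FPKM in KO livers and 2.49 to 3.90 FPKM in WT livers. Of the 7 marker lists, no gene was at 0 in every library. In whole liver, fewer cells of a type and less RNA per cell cannot be told apart.

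The 42 genes took up 2.94 ± 0.102% of the summed FPKM in KO livers and 2.91 ± 0.192% in WT livers (mean ± SD, n = 5 each). The complement members made up 0.783 ± 0.0239% in KO livers and 0.801 ± 0.0835% in WT livers. The coagulation members made up 2.15 ± 0.0896% in KO livers and 2.11 ± 0.118% in WT livers. Mean levels over the 10 libraries ran from 8.596 FPKM for C6, a component of the membrane pore, to 2648 FPKM for Fga, the fibrinogen alpha chain, a 308-fold span. Levels above 1000 FPKM were reached by 8 genes: the 3 fibrinogen chains, C3, Serpinc1, Vtn, Kng1 and F2. C6, Pros1 and F11 were the lowest.

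**Figure D1:**
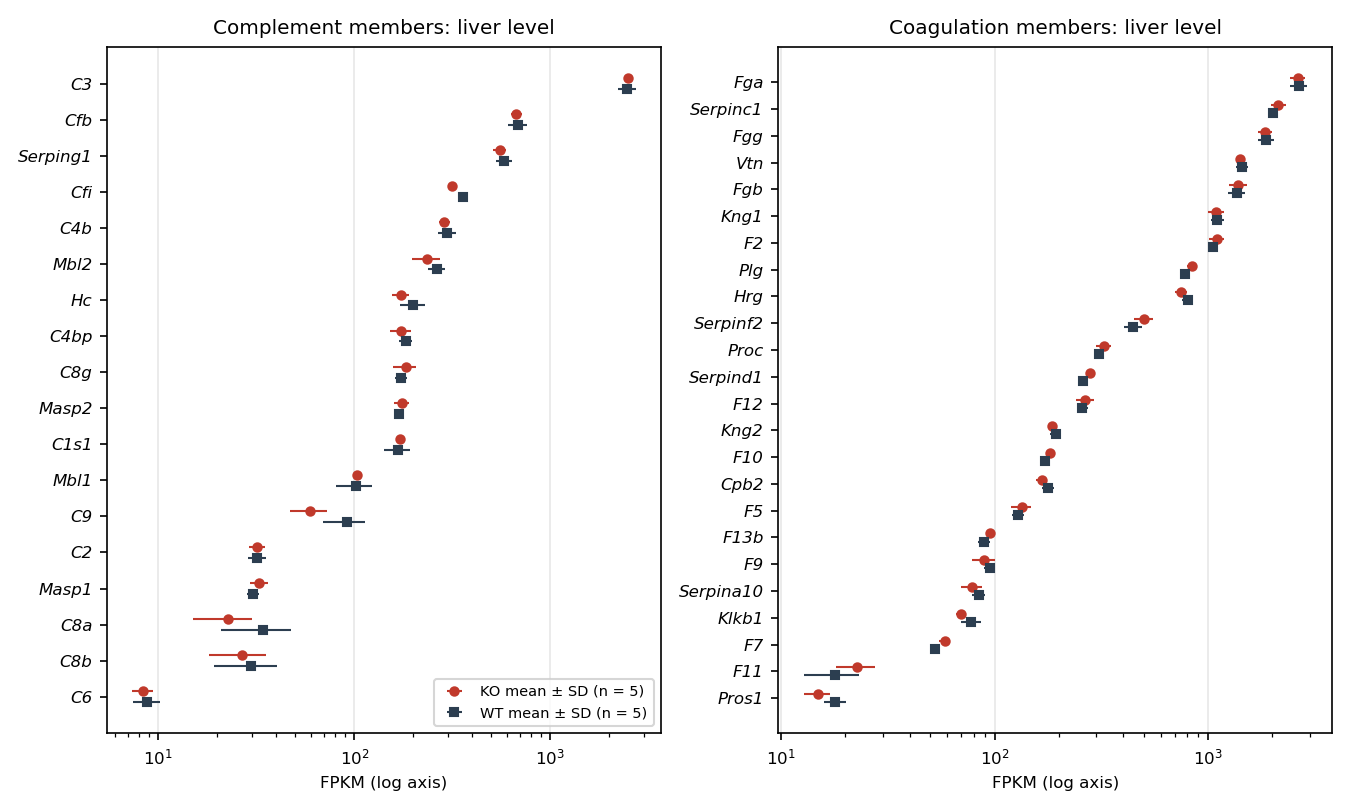
Mean FPKM of each complement member (left) and coagulation member (right) on a log axis, ordered by level, with KO above WT for each gene and bars for the SD (n = 5 each). Means lie between 8.596 FPKM (C6) and 2648 FPKM (Fga), and the KO and WT symbols nearly coincide for most genes.

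Liver levels of these genes were close between the genotypes. No member passed an adjusted p of 0.05 in limma, a linear model with moderated variances, run on log2(FPKM + 0.5) with Benjamini-Hochberg adjustment over 12395 genes, where 8 genes (0.0645%) passed. The lowest adjusted p among the members was 0.234, for Cfi. At an unadjusted p under 0.05, 1 member was higher in KO livers (F7) and 3 were lower (C9, Cfi and Pros1), that is 1 and 3 of 42, against 2.69% and 9.07% of all genes tested. The 5 KO values lay wholly to one side of the 5 WT values in 1 of 42 members, Cfi, and in 2.79% of all genes tested. The KO mean was within 10% of the WT mean in 32 of the 42. A change of 1.5-fold or more was estimated for 1 of the 42 and for 217 of all 12395 genes tested. The median half-width of the 95% interval in log2 was 0.17 for the members and 0.24 for all genes tested. For 38 members the 95% interval of the fold change lay inside 1.5-fold in either direction, so differences of that size were outside the interval gene by gene. The 4 exceptions were C8a, C8b, C9 and F11. They varied most between libraries, and the interval widens with that spread, so these are not separate observations. The shares of all genes tested within 10%, or with an interval inside 1.5-fold, were not counted.

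The median log2 fold change, KO over WT, was -0.06 for the complement members, with 7 higher and 11 lower, and 0.03 for the coagulation members, with 13 higher and 11 lower. The median over all genes tested was -0.05, with 34.9% higher. Median-of-ratios scaling moved the median of all genes to 0.00 and that of the coagulation members to 0.09. The count was then 9 higher and 9 lower for complement and 18 higher and 6 lower for coagulation, and the genes at an unadjusted p under 0.05 were 669 higher and 599 lower, against 334 and 1124 before it. Coagulation members at an unadjusted p under 0.05 then numbered 6, of which 5 were higher, and none passed the adjusted threshold. The complement median was 0.01 without WT replicate 1. The 8 calls over all genes became 18 without WT replicate 2. They became 4 without KO replicate 2, WT replicate 1 or WT replicate 5, and 5 without KO replicate 1, KO replicate 3, WT replicate 3 or WT replicate 4. The 2 complement members at an unadjusted p under 0.05 became 4 without KO replicate 4 or WT replicate 2. The 2 coagulation members became 4 without KO replicate 2 and 1 without KO replicate 1, KO replicate 5 or WT replicate 5.

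**Figure D2:**
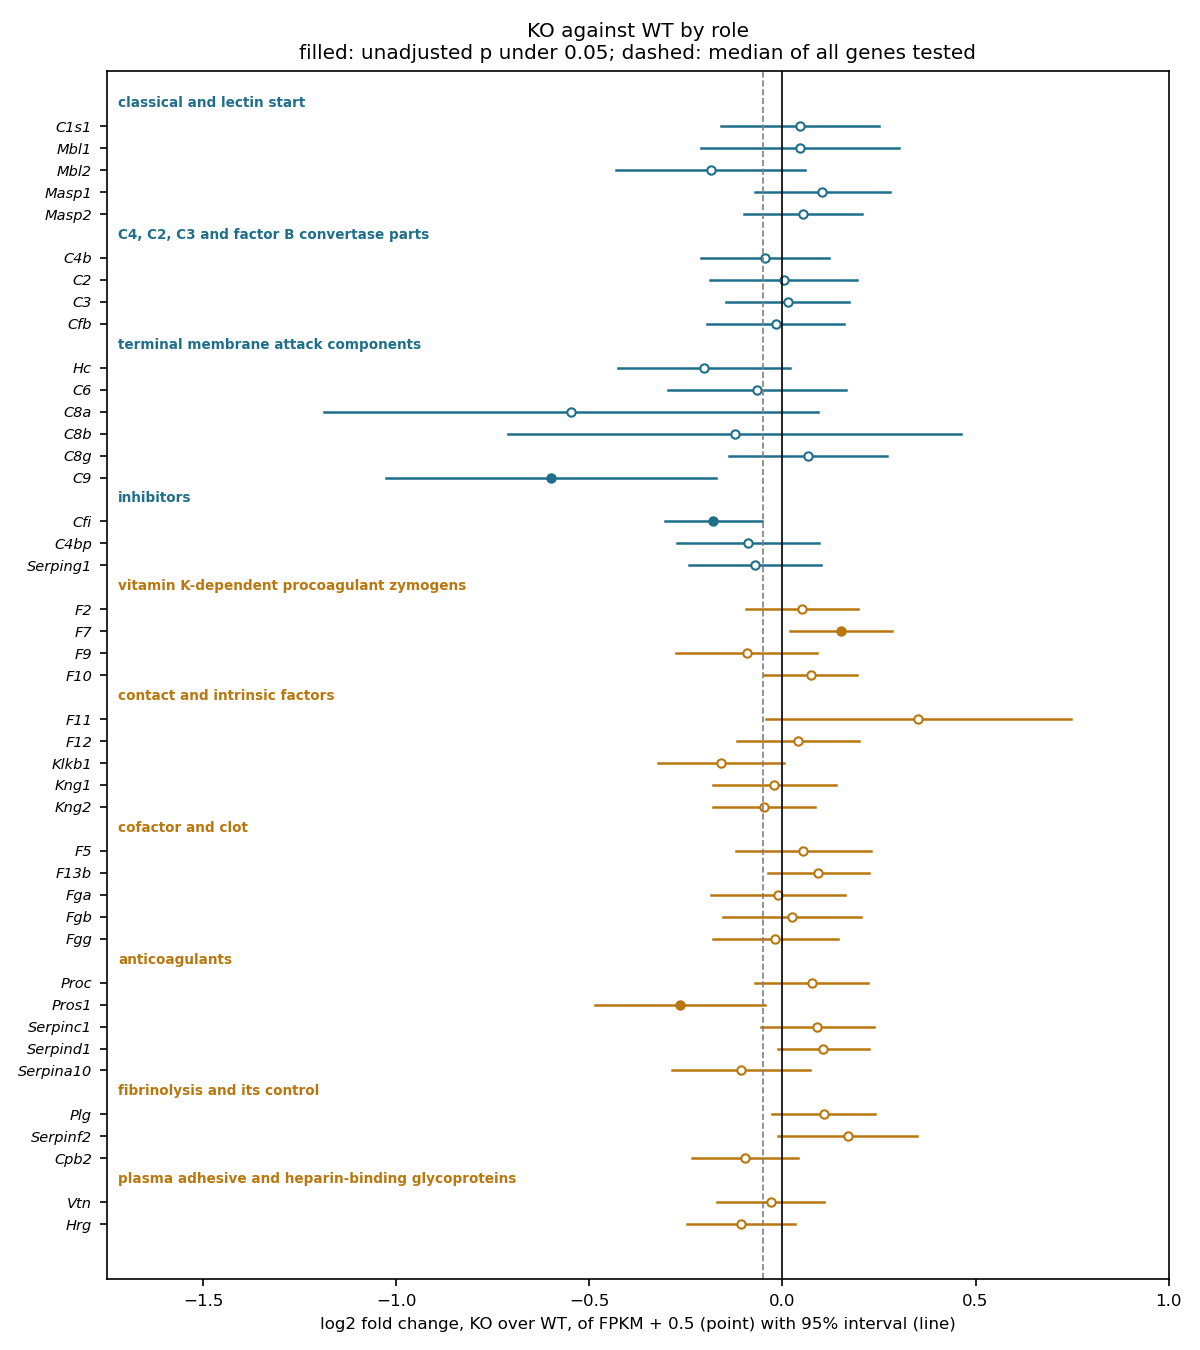
Log2 fold change, KO over WT, of each member by role (complement blue, coagulation orange), with its 95% interval from limma. Filled points mark the 4 members at an unadjusted p under 0.05, and the dashed line is the median of all genes tested, at -0.05.

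The proteins that start the classical and lectin routes were at similar levels in both genotypes. C1s1, the C1s protease, was at 171 ± 6.68 FPKM in KO livers and 167 ± 25.0 FPKM in WT livers, and shares 95.9% of 2643 aligned transcript bases with its copy C1s2, which is listed near 0. Among the lectins that bind microbial sugars, Mbl2 had 242, 273, 259.5, 177 and 218 FPKM in KO replicates 1 to 5, against 277, 221, 274, 288 and 260.3 FPKM in WT replicates 1 to 5. KO replicate 4 was the lowest of the 10, and the groups overlapped (log2 fold change -0.19, 95% interval -0.43 to 0.06; limma adjusted p = 0.548). Without KO replicate 4 the log2 fold change was -0.09. Mbl1 averaged 103 ± 3.598 FPKM in KO livers and 102 ± 20.97 FPKM in WT livers, and its coefficient of variation (SD over mean) was 3.49% in KO and 20.7% in WT. The lectin-bound protease Masp1 was at 32.8 ± 3.50 FPKM in KO livers and 30.4 ± 2.20 FPKM in WT livers. Masp2, which cleaves C4 and C2, was at 175 ± 15.9 FPKM in KO livers and 168 ± 9.14 FPKM in WT livers. Exons of Tardbp on the other strand cover 54.9% of its exon bases in GENCODE M21. Tardbp had a log2 fold change of -0.31. The sources used here do not say whether fragments were counted by strand.

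The parts of the C3 and C5 convertases differed little, with log2 fold changes of all 4 between -0.05 and 0.01. C3, the protein on which all routes meet, had 2324, 2575, 2566, 2434 and 2530.2 FPKM in KO replicates 1 to 5, against 2811, 2257, 2224, 2629.5 and 2437 FPKM in WT replicates 1 to 5. WT replicate 1 was the highest and WT replicate 3 the lowest, so the WT range enclosed the KO range (log2 fold change 0.01, 95% interval -0.15 to 0.17; limma adjusted p = 0.963). Cfb, the protease of the alternative pathway, had 673, 728, 610.4, 678 and 665 FPKM in KO livers, against 761, 569, 674, 739.7 and 666 FPKM in WT livers. Here too every KO value fell inside the WT range (log2 fold change -0.02, 95% interval -0.19 to 0.16; limma adjusted p = 0.954). C4b, the C4 protein cleaved by both other routes, was at 288 ± 17.9 FPKM in KO livers and 298 ± 30.7 FPKM in WT livers. Its copy C4a matches 95.9% of 5378 aligned transcript bases, so the division of reads between them is uncertain. The C2 protease was at 32.0 ± 3.07 FPKM in KO livers and 32.0 ± 3.29 FPKM in WT livers. C2 and Cfb lie 0.086 kb apart on chromosome 17 and share exon bases in GENCODE M21 with the gene model Gm20547 on the same strand, which covers 42.8% of C2 and 79.5% of Cfb exon bases.

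The components that build the membrane pore held the most negative fold changes of the complement arm, with none past the adjusted threshold. C9, the subunit that polymerises into the pore, had 52.4, 73.0, 71.6, 58.0 and 43.3 FPKM in KO replicates 1 to 5, against 120.3, 93.8, 95.6, 90.2 and 57.3 FPKM in WT replicates 1 to 5. WT replicates 1 to 4 lay above every KO library, and WT replicate 5 lay among them. The log2 fold change was -0.60 (SE 0.194, 95% interval -1.03 to -0.17, limma unadjusted p = 0.0105, adjusted p = 0.254). In 21 of 21 refits the unadjusted limma p was under 0.05, with log2 fold changes of -0.76 to -0.49. That count was 20 for Cfi and 17 each for F7 and Pros1. The refits reuse the same libraries and are not independent evidence.

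C8a, which encodes the alpha chain of C8, had 16.6, 18.8, 21.7, 35.7 and 20.1 FPKM in KO replicates 1 to 5, against 38.8, 35.5, 24.9, 52.9 and 18.5 FPKM in WT replicates 1 to 5. Its values spanned 3.19-fold over the 10 libraries, with WT replicate 4 the highest and KO replicate 1 the lowest, and the groups overlapped (log2 fold change -0.55, 95% interval -1.19 to 0.09; limma adjusted p = 0.485). C8b, the beta chain, which was picked for description after its values were seen, had 25.2, 26.5, 20.7, 41.4 and 19.9 FPKM in KO livers, against 29.1, 35.2, 22.2, 44.0 and 17.6 FPKM in WT livers. KO replicate 4 and WT replicate 4 were the highest of their groups for both chains. The third chain, C8g, was steadier at 183 ± 24.4 FPKM in KO livers and 173 ± 13.1 FPKM in WT livers. KO replicate 4 was its lowest library.

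Hc, the gene of C5, had 181, 149, 167, 195 and 171 FPKM in KO replicates 1 to 5, against 237, 165, 182, 222 and 193 FPKM in WT replicates 1 to 5. WT replicates 1 and 4 were the 2 highest, and the groups overlapped (log2 fold change -0.20, 95% interval -0.43 to 0.02; limma adjusted p = 0.455). C6 was at 8.38 ± 0.992 FPKM in KO livers and 8.82 ± 1.34 FPKM in WT livers. In 5 of the 6 pore genes, all but C8g, the log2 fold change was below 0, with a median of -0.16. Over all genes tested, 65.1% were below 0. With median-of-ratios scaling it was -0.54 for C9, -0.49 for C8a, -0.15 for Hc, -0.07 for C8b, -0.01 for C6 and 0.12 for C8g.

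**Figure D3:**
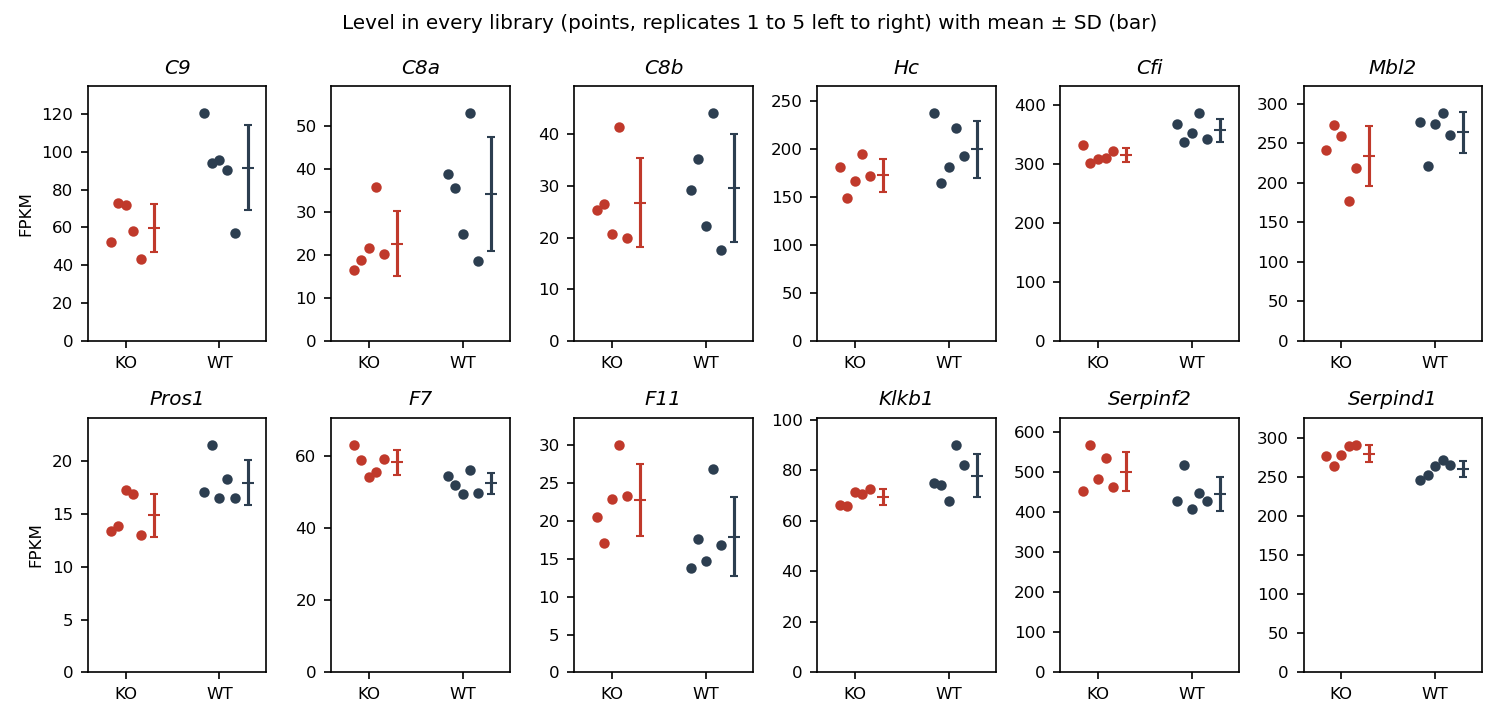
FPKM of 12 members in every library, KO (red) left of WT (dark), replicates 1 to 5 from left to right within a group, with mean ± SD beside the points. The Cfi groups do not overlap, 4 of 5 WT libraries lie above all KO libraries for C9, and the C8a and C8b points are widely spread in both genotypes.

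Of the complement inhibitors, Cfi encodes factor I, the protease that cuts C3b and C4b into inactive pieces. Cfi had 333, 302.4, 309, 310.3 and 322 FPKM in KO replicates 1 to 5, against 368, 338, 352, 386 and 342 FPKM in WT replicates 1 to 5. The highest KO library lay below the lowest WT library, and the KO mean was 88.3% of the WT mean (log2 fold change -0.18, SE 0.0575, 95% interval -0.30 to -0.05; limma unadjusted p = 0.00860, adjusted p = 0.234). With median-of-ratios scaling the log2 fold change was -0.12 and the unadjusted p = 0.0979. Cfi lies on the plus strand of chromosome 3 at 129835884 to 129875332 (GENCODE M21, GRCm38), 742 kb from Etnppl, the gene removed in the KO mice. Whether this position has a part in the level of Cfi was not tested. C4bp, the C4b-binding protein that assists factor I, was at 173 ± 20.8 FPKM in KO livers and 184 ± 14.2 FPKM in WT livers. Serping1, the C1 inhibitor, which also restrains kallikrein and factor XII, was at 553 ± 44.1 FPKM in KO livers and 581 ± 53.0 FPKM in WT livers.

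Among the vitamin K-dependent proteases, F7, whose product starts coagulation together with tissue factor, was the member with the lowest p on the higher side. It had 63.2, 59.0, 54.4, 55.8 and 59.3 FPKM in KO replicates 1 to 5, against 54.5, 52.2, 49.7, 56.1 and 49.8 FPKM in WT replicates 1 to 5. KO replicates 1, 2 and 5 lay above every WT library, while KO replicates 3 and 4 lay inside the WT range. The log2 fold change was 0.15 (SE 0.0615, 95% interval 0.02 to 0.28; limma unadjusted p = 0.0290, adjusted p = 0.347). F10, 1.499 kb downstream of F7 on chromosome 8, was at 182 ± 6.78 FPKM in KO livers and 173 ± 8.09 FPKM in WT livers, and was the steadiest member, with a coefficient of variation of 4.76% over the 10 libraries. F2, prothrombin, was at 1100.3 ± 85.8 FPKM in KO livers and 1062 ± 53.8 FPKM in WT livers. F9, the haemophilia B factor on the X chromosome, was at 89.2 ± 10.8 FPKM in KO livers and 94.8 ± 5.32 FPKM in WT livers. The summed share of F2, F7, F9, F10, Proc and Pros1 was 0.243 ± 0.0133% of FPKM in KO livers and 0.233 ± 0.0146% in WT livers.

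In the contact system, which starts clotting on charged surfaces and releases bradykinin, F11 and Klkb1 are neighbours on chromosome 8 with opposite signs. F11, the factor XI gene, described after its values were seen, had 20.5, 17.1, 23.0, 30.1 and 23.3 FPKM in KO replicates 1 to 5, against 13.8, 17.6, 14.7, 26.8 and 16.8 FPKM in WT replicates 1 to 5. KO replicate 4 was the highest of the 10, the other 4 KO libraries lay inside the WT range, and WT replicates 2 and 4 lay inside the KO range (log2 fold change 0.35, 95% interval -0.04 to 0.75; limma adjusted p = 0.466). Klkb1, plasma prekallikrein, had 66.1, 65.9, 71.5, 70.6 and 72.5 FPKM in KO livers, against 75.1, 74.2, 67.8, 90.03 and 81.9 FPKM in WT livers. WT replicate 3 was the 1 WT library inside the KO range (log2 fold change -0.16, 95% interval -0.32 to 0.00; limma adjusted p = 0.431). The log2 fold change of Klkb1 was -0.11 without WT replicate 4 and -0.10 with median-of-ratios scaling. The identifier that the table pairs with Klkb1 is named Gm45753 in GENCODE M21. There it is a separate gene model on the same strand that covers 43.2% of the Klkb1 exon bases. The authors' gene model may differ from that annotation, so the values given for Klkb1 may be those of another model. F12, the factor XII gene, was at 266 ± 25.7 FPKM in KO livers and 258 ± 14.7 FPKM in WT livers.

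Kng1 and Kng2 encode kininogens, the precursors of bradykinin, and their longest transcripts match at 91.1% of 2256 aligned bases, so the split of reads between them is uncertain. Kng1 had 1239, 1088, 1083, 993 and 1062 FPKM in KO replicates 1 to 5, against 1191, 1117, 1081, 1162 and 989.8 FPKM in WT replicates 1 to 5. Kng2 had 201, 185, 184, 189 and 175 FPKM in KO livers, against 210.1, 186, 193, 179 and 198 FPKM in WT livers. Both overlapped between genotypes (limma adjusted p = 0.939 for Kng1 and 0.796 for Kng2). The log2 fold change of Kng2 was -0.05, and lay between -0.07 and -0.02 with 1 library left out, nearest to 0 without WT replicate 1 or KO replicate 5 and farthest without KO replicate 1 or WT replicate 4. The ratio of Kng1 to Kng2 was 5.85 ± 0.365 in KO livers and 5.75 ± 0.546 in WT livers.

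Of the clot proteins, the fibrinogen chains Fga, Fgb and Fgg lie side by side on chromosome 3 and were among the most abundant members. Fga had 2721, 2652, 2534, 2930.3 and 2339 FPKM in KO replicates 1 to 5, against 3010.4, 2705, 2447, 2404 and 2734 FPKM in WT replicates 1 to 5. Fgb had 1366, 1367, 1359.5, 1599 and 1242 FPKM in KO livers, against 1488, 1465, 1226, 1237 and 1401 FPKM in WT livers. Fgg had 1869, 1785, 1823, 2087 and 1699 FPKM in KO livers, against 2058, 1952, 1706, 1729 and 1939 FPKM in WT livers. For all 3 chains KO replicate 4 was the highest and KO replicate 5 the lowest of the KO libraries, WT replicate 1 was the highest of the WT libraries, and the groups overlapped. The log2 fold changes were -0.01 for Fga (95% interval -0.19 to 0.16; limma adjusted p = 0.968), 0.02 for Fgb (-0.15 to 0.20; adjusted p = 0.936) and -0.02 for Fgg (-0.18 to 0.14; adjusted p = 0.948), with signs that changed between settings.

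The levels of the chains kept a nearly constant ratio from library to library. The ratio of Fgb to Fga was 0.526 ± 0.0174 in KO livers and 0.513 ± 0.0181 in WT livers, and that of Fgg to Fga was 0.704 ± 0.0226 in KO livers and 0.706 ± 0.0158 in WT livers (mean ± SD, n = 5 each). Over all 10 libraries the coefficient of variation of the ratio was 3.48% for Fga to Fgb, 2.65% for Fga to Fgg and 2.56% for Fgb to Fgg, while each chain alone varied by 7.56% to 8.77%. Among the 861 pairs that the 42 members form, the median was 12.5% and the highest 53.0%. Fgb with Fgg had the lowest of all, and 2 and 5 pairs lay below the other fibrinogen pairs. The 10 libraries are shared by every pair, so this is a description of these samples.

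Other neighbouring members did not all keep such a ratio. F7 to F10 varied by 4.68%, near the 4.76% of F10 alone, while F7 varied by 7.76%. Kng1 to Hrg, within 96.2 kb on chromosome 16, varied by 5.37%, against 7.28% for Kng1 and 7.02% for Hrg alone. C2 to Cfb varied by 13.9%, above the 9.37% of C2 and the 8.53% of Cfb. C8a to C8b, 11.1 kb apart on chromosome 4, varied by 20.8%, below the 41.9% of C8a and the 32.6% of C8b. F11 to Klkb1 varied by 26.0%, near the 26.3% of F11, with Klkb1 at 10.2%. They lie 4.66 kb apart by the GENCODE M21 position of Klkb1, whose identifier there is not the deposited one. The ratio of C8b to C8a was 1.21 ± 0.251 in KO livers and 0.883 ± 0.0951 in WT livers, and that of C8g to C8a 8.84 ± 2.88 in KO livers and 5.74 ± 2.24 in WT livers. For both C8 ratios the KO and WT ranges overlapped.

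**Figure D4:**
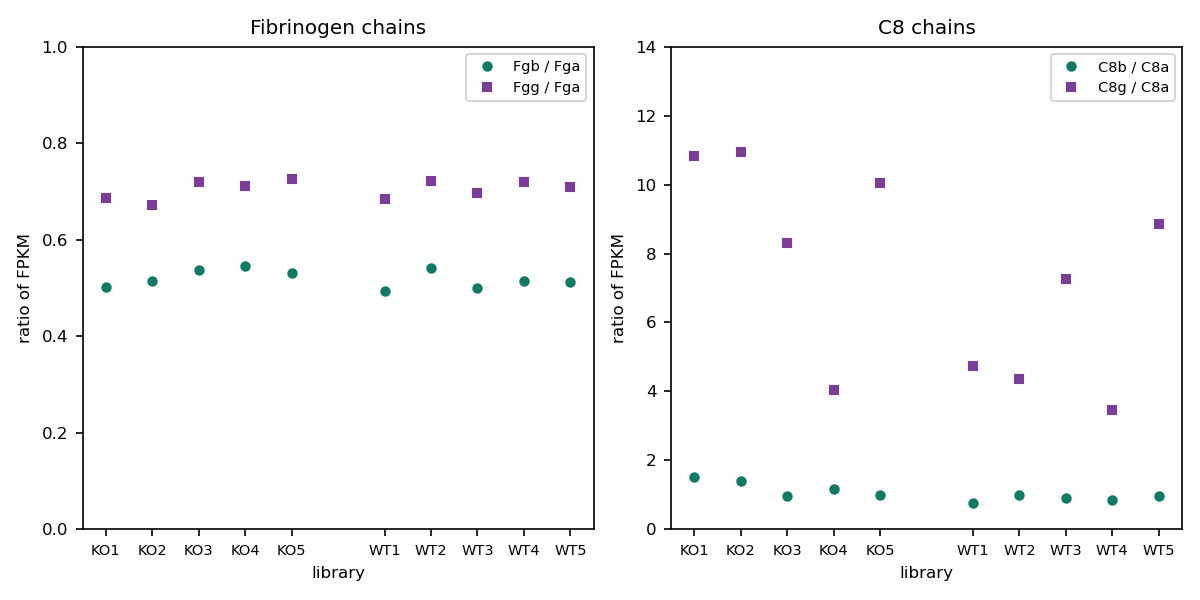
Ratios of FPKM between chains of fibrinogen (left) and of C8 (right) in each library, KO left of WT, with 1 point per library and axes that start at 0. Fibrinogen ratios stay between 0.494 and 0.546 (Fgb to Fga) and between 0.673 and 0.726 (Fgg to Fga), whereas C8g to C8a runs from 3.47 to 10.9.

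The promoters of Fga, Fgb, Fgg, C8a, C8b and C9 are shown. They were chosen because these genes hold the steadiest ratios and the most variable levels among the members. Each is 300 bases from RefSeq on GRCm38.p6, 250 before to 50 after the annotated start, 5′ to 3′ on the strand of the gene. Capitals mark matches on either strand to GTTAAT (half-site of the hepatocyte factor HNF1), CAAAGTCCA (HNF4), TTGCNNAA (C/EBP), TTCNNNGAA (STAT) and CTGGGAA (core of the interleukin-6 response element, added after the data were seen). No 2 matches shown overlap.
Fga, chr3:83025903-83026202, plus strand: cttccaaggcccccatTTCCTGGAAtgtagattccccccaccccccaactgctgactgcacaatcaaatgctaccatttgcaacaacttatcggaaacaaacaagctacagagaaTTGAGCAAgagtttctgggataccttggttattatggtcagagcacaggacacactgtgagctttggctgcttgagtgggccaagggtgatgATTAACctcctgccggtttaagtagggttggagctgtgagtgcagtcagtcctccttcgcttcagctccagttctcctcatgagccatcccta
Fgb, chr3:83049814-83050113, minus strand: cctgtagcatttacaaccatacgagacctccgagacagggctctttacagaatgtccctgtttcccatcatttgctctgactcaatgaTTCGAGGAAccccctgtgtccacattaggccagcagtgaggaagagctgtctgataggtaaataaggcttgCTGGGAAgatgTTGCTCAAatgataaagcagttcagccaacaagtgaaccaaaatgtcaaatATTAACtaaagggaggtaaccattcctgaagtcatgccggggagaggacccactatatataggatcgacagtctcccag
Fgg, chr3:83007474-83007773, plus strand: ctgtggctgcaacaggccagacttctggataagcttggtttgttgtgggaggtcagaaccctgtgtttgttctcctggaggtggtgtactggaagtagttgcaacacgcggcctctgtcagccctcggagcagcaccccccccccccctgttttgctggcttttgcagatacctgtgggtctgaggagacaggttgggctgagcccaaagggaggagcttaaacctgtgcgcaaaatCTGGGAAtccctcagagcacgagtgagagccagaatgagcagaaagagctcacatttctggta
C8a, chr4:104876349-104876648, minus strand: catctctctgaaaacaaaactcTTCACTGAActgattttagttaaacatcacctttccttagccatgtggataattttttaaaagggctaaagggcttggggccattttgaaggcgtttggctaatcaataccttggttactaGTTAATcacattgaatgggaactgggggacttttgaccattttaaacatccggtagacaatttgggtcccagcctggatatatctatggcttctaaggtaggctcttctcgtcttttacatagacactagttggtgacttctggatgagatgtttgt
C8b, chr4:104766067-104766366, plus strand: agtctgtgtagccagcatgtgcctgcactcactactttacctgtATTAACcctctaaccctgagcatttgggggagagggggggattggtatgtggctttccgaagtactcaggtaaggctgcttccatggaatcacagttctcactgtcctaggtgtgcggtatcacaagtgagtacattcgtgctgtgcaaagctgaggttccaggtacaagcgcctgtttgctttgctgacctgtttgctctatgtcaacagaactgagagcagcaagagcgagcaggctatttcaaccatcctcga
C9, chr15:6445096-6445395, plus strand: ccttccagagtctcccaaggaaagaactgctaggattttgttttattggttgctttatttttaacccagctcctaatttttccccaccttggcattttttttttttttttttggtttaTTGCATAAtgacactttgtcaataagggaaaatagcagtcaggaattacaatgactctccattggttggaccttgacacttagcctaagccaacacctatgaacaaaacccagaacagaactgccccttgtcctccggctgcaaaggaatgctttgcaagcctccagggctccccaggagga

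In the Fga and Fgb promoters an HNF1 half-site starts 43 and 29 bases before the annotated start, and each also holds a C/EBP and a STAT match. The Fgg window holds the CTGGGAA core alone, 13 bases before the start, and Fgb has that core 91 bases before its start. C8a has an HNF1 half-site 107 bases before the start and a STAT match, C8b an HNF1 half-site 206 bases before the start, and C9 a C/EBP match 132 bases before the start. Promoters were matched for 32 of the 42 members (34 windows). GTTAAT was in 26.5% of those windows, against 7.10% of 32851 promoter windows of all genes. TTGCNNAA was in 35.3% against 10.8%, TTCNNNGAA in 20.6% against 8.30%, and CTGGGAA in 20.6% against 11.1%. CAAAGTCCA was in 0 of 34 member windows and 0.475% of all windows. A match describes letters and not binding.

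F5, the cofactor of factor X, was at 134 ± 14.9 FPKM in KO livers and 129 ± 8.46 FPKM in WT livers. F13b, the carrier subunit of the factor that cross-links fibrin, was at 95.5 ± 4.40 FPKM in KO livers and 89.5 ± 5.72 FPKM in WT livers. Neither passed the test (limma adjusted p = 0.834 and 0.575).

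Among the anticoagulants, Pros1, the cofactor of activated protein C, had the lowest p of the coagulation members. It had 13.4, 13.8, 17.2, 16.9 and 12.99 FPKM in KO replicates 1 to 5, against 17.0, 21.5, 16.5, 18.2 and 16.5 FPKM in WT replicates 1 to 5. KO replicates 1, 2 and 5 lay below every WT library, and KO replicates 3 and 4 inside the WT range. The log2 fold change was -0.27 (SE 0.101, 95% interval -0.49 to -0.05; limma unadjusted p = 0.0217, adjusted p = 0.314). Proc, protein C itself, was at 326 ± 26.7 FPKM in KO livers and 309 ± 16.2 FPKM in WT livers.

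Serpinc1, antithrombin, had 2163, 2406, 2033, 1948 and 2152 FPKM in KO replicates 1 to 5, against 2088, 1865, 2082, 1993 and 2009 FPKM in WT replicates 1 to 5. KO replicates 1, 2 and 5 lay above every WT library, and KO replicates 3 and 4 inside the WT range (log2 fold change 0.09, 95% interval -0.06 to 0.24; limma adjusted p = 0.641). The log2 fold change of Serpinc1 was 0.05 without KO replicate 2, 0.06 with quantile normalization and 0.15 with median-of-ratios scaling. Exons of Zbtb37 on the other strand cover 34.4% of the Serpinc1 exon bases, with Zbtb37 at 1.87 FPKM. Serpind1, heparin cofactor II, had 277, 264, 279, 289 and 291 FPKM in KO livers, against 246, 253, 263, 272 and 266 FPKM in WT livers. In 4 of 5 KO libraries it was above every WT library (log2 fold change 0.11, 95% interval -0.01 to 0.22; limma adjusted p = 0.466). With median-of-ratios scaling it was 0.16. Serpina10, the protein Z-dependent protease inhibitor, was at 78.6 ± 9.003 FPKM in KO livers and 84.4 ± 5.87 FPKM in WT livers.

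In fibrinolysis, Serpinf2 encodes alpha-2-antiplasmin, the main inhibitor of plasmin. It had 454, 568, 484, 536 and 463 FPKM in KO replicates 1 to 5, against 427, 518, 409, 447 and 427 FPKM in WT replicates 1 to 5. Replicate 2 was the highest library in both genotypes, and the groups overlapped (log2 fold change 0.17, 95% interval -0.01 to 0.35; limma adjusted p = 0.448). Plg, plasminogen, was at 844 ± 45.2 FPKM in KO livers and 783 ± 42.9 FPKM in WT livers. Cpb2, the carboxypeptidase that protects fibrin from plasmin, was at 167 ± 9.52 FPKM in KO livers and 178 ± 11.3 FPKM in WT livers. Among the adhesive glycoproteins, vitronectin (Vtn) was at 1415 ± 63.4 FPKM in KO livers and 1447 ± 97.9 FPKM in WT livers. Histidine-rich glycoprotein (Hrg) was at 746 ± 48.2 FPKM in KO livers and 804 ± 47.3 FPKM in WT livers. None of these passed the test (lowest limma adjusted p = 0.448).

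The members differed in how much they varied between libraries. The coefficient of variation over the 10 libraries was 41.9% for C8a, 32.6% for C8b, 31.8% for C9 and 26.3% for F11. It was 15.5% or less for the other 38. Both genotypes are pooled here, so a difference between them adds to the value. Within KO and WT livers it was 33.6% and 38.9% for C8a and 32.4% and 35.4% for C8b. For C9 it was 21.2% and 24.6%, and for F11 20.9% and 29.0%. Among the 5327 genes tested at or above the level of C6, the lowest member, 98.9% varied less than C8a and 95.5% less than F11, and the median was 10.1%. The median was 10.1% over the complement members and 7.42% over the coagulation members. C8a, C8b and F11 shared their highest libraries, KO replicate 4 and WT replicate 4, while C9 was highest in KO replicate 2 and WT replicate 1.

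**Figure D5:**
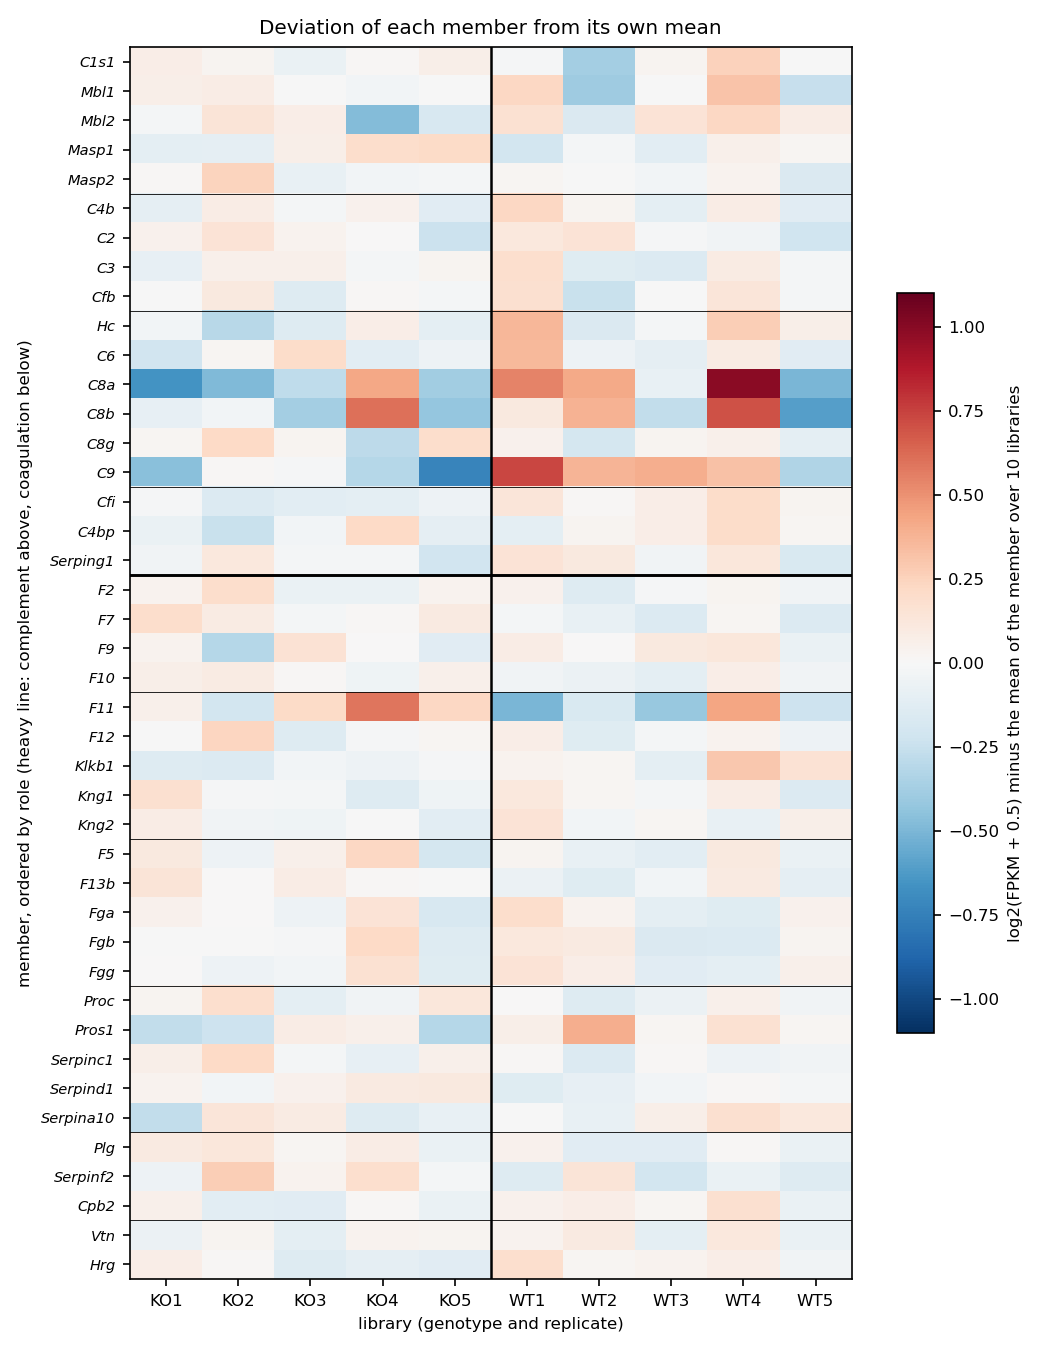
Deviation of log2(FPKM + 0.5) of each member (rows, by role) from its own mean over the 10 libraries (columns, KO left of WT), red above and blue below. C8a, C8b, C9 and F11 have the strongest colours in both genotypes, and the fibrinogen rows change together.

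Other genes of both cascades gave few differences. Of 18 other plasma complement genes tested, 5 had log2 fold changes above 0 and 13 below on the deposited scaling. Over all genes tested, 65.1% were below 0 on that scaling. Of the 18, 0 passed limma's adjusted threshold or an unadjusted p under 0.05. Fcna, a ficolin that starts the lectin route, was at 40.5 ± 5.22 FPKM in KO livers and 34.8 ± 4.56 FPKM in WT livers. The classical protease gene C1ra was at 60.9 ± 2.78 FPKM in KO livers and 55.2 ± 5.74 FPKM in WT livers. Of 10 complement receptors and cell-bound regulators tested, 1 was higher and 2 were lower at an unadjusted p under 0.05, against 2.69% higher and 9.07% lower of all genes tested, and 0 passed the adjusted threshold. Susd4, a membrane regulator of complement, was at 2.09 ± 0.533 FPKM in KO livers and 0.782 ± 0.294 FPKM in WT livers without overlap (limma adjusted p = 0.0729). Cd59a, which blocks the pore on host cells, was at 55.3 ± 1.76 FPKM in KO livers and 62.7 ± 7.14 FPKM in WT livers (limma adjusted p = 0.403), and C3ar1, the C3a receptor, at 1.24 ± 0.243 FPKM in KO livers and 1.64 ± 0.236 FPKM in WT livers (limma adjusted p = 0.387).

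Of 15 other coagulation and fibrinolysis genes tested, 0 passed the adjusted threshold in limma, and 4, each of them lower, had an unadjusted p under 0.05, against 9.07% of all genes tested that were lower. Fgl1, a fibrinogen-like protein secreted by hepatocytes, was at 304 ± 43.0 FPKM in KO livers and 413 ± 65.2 FPKM in WT livers (limma adjusted p = 0.178). F3, tissue factor, was at 1.24 ± 0.281 FPKM in KO livers and 1.90 ± 0.332 FPKM in WT livers (limma adjusted p = 0.208). Procr, the endothelial protein C receptor, was at 0.670 ± 0.0919 FPKM in KO livers and 1.14 ± 0.490 FPKM in WT livers (limma adjusted p = 0.347). For Fgl1, F3 and Procr the KO and WT values overlapped.

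Of 8 genes of the vitamin K cycle and clotting factor secretion, 1 was higher and 2 were lower at an unadjusted p under 0.05, beside shares of 2.69% higher and 9.07% lower over all genes tested, and 0 passed the adjusted threshold in limma. Ggcx, the carboxylase that modifies the glutamates, was at 20.2 ± 0.784 FPKM in KO livers and 18.4 ± 1.104 FPKM in WT livers (limma adjusted p = 0.432). Furin, which removes the propeptides of secreted proteins, was at 74.4 ± 9.89 FPKM in KO livers and 62.3 ± 5.01 FPKM in WT livers (limma adjusted p = 0.302). The quinone reductase Nqo1 was at 5.89 ± 0.592 FPKM in KO livers and 7.64 ± 0.977 FPKM in WT livers (limma adjusted p = 0.200). Vkorc1l1, a paralog of the vitamin K epoxide reductase, was at 11.9 ± 1.32 FPKM in KO livers and 13.9 ± 1.33 FPKM in WT livers (limma adjusted p = 0.356). Of 16 transcription factors known to act on plasma protein genes, 0 passed the adjusted threshold in limma, and 2, both lower, had an unadjusted p under 0.05, a share near the 9.07% of all genes tested that were lower. Onecut1, a hepatocyte factor, was at 5.30 ± 1.47 FPKM in KO livers and 7.37 ± 0.860 FPKM in WT livers (limma adjusted p = 0.261), and Nr3c1, the glucocorticoid receptor, at 14.8 ± 1.54 FPKM in KO livers and 17.2 ± 1.46 FPKM in WT livers (limma adjusted p = 0.338). Summed levels of the hepatocyte markers and of the Kupffer cell markers overlapped between genotypes. Alb was the largest part of the hepatocyte sum, at 42560 FPKM in KO livers and 38646 FPKM in WT livers. Of 11 hepatocyte markers, 8 had log2 fold changes above 0 and 3 below, against 34.9% above 0 over all genes tested. Cps1 and Ahsg, both higher, had an unadjusted limma p under 0.05, against 2.69% of all genes, and 0 passed the adjusted threshold. Of 8 Kupffer cell markers, 1 was above 0 and 7 below, against 65.1% below 0 over all genes tested. For these 8 markers, 0 had an unadjusted limma p under 0.05. The 8 stellate cell and fibroblast markers gave the same counts. The part of these cell types in the values of the members was not tested.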

How the data were processed

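Liver RNA of 5 KO and 5 WT samples was sequenced from poly(A)-selected, paired-end libraries. The authors deposited 1 table of FPKM values per gene and library. The submitters' processing notes name STAR, RSEM, DESeq, DESeq2, R 4.0.2 and mm10, without their roles, so which of them made the FPKM values is not stated. No further column of sample values was left out (0).

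From the deposited FPKM, limma 3.58.1 (R 4.3.3) was run on log2(FPKM + 0.5), with trend and robust prior, two-sided, over 12395 genes whose mean reached 0.5 FPKM, all 10 libraries and no covariate. The threshold was a Benjamini-Hochberg adjusted p of 0.05. The script was tested on simulated data. A pseudocount of 0.5 understates fold changes of low genes. Depth was read from genes of 350 to 1000 bases with 1 transcript, where 94.6% to 97.3% of values lay within 0.1 fragment of a whole number.

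Symbols were matched to GENCODE M21 for position and overlap, transcripts were aligned with BLAST 2.17.0, and promoters came from RefSeq (GRCm38.p6). Figures were drawn with matplotlib 3.10.9 (Python 3.11.15, pandas 2.3.3). Alternatives were 21 settings: pseudocount, filter, scaling, prior, library weights, replicate block and each library left out.

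Values of every library are printed for the 5 members of lowest unadjusted p and the 2 of highest mean in each arm, the fibrinogen chains, Kng1, Kng2 and Cfi, and for C8b and F11, chosen after their values were seen. Of other lists, up to 4 genes of lowest p were named. The values of 1 gene counted there are not reported here. The members and lists were chosen with earlier results of these data known.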

Additional observations from a re-analysis of the deposited data

Results flagged for a closer look

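In 3 of 102 groups of 5 libraries looked at, 1 library stood apart from the other 4 by Dixon's test, where chance gives about 1 in 20. For Masp2 it was KO replicate 2, at 202.42 FPKM, with the other KO libraries at 162.03 to 173.24 FPKM. For C8a it was KO replicate 4, at 35.73 FPKM, with the other KO libraries at 16.59 to 21.71 FPKM. For F11 it was WT replicate 4, at 26.84 FPKM, with the other WT libraries at 13.82 to 17.56 FPKM.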

How the results depend on the processing

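No complement or coagulation member passed the adjusted threshold of limma in any of 21 settings, and the lowest adjusted p of a member was 0.136, for C9 with the replicate block. The 8 calls over all genes became 5 without a filter, 5 with no trend and no robust prior, 18 with array weights, 5 with the replicate block, and 4 to 18 with 1 library left out. Median-of-ratios scaling divides each library by 1 factor. With it, the median log2 fold change of the coagulation members moved from 0.0319 to 0.0881. The complement median moved from -0.0558 to -0.00121 and that of all genes tested from -0.0503 to -0.00103. No cause beyond this scaling was tested. The coagulation median lay between 0.000887 and 0.0598 with 1 library left out, and the complement median between -0.0896 and 0.0102. Among the 18 named members, 355 refits kept the direction and side of the threshold, and 23 reversed a log2 fold change near 0, for which the cause was not tested. With median-of-ratios scaling these were Cfb (0.0388), Kng1 (0.0354), Kng2 (0.00779), Fga (0.0436) and Fgg (0.0381). With quantile normalization it was C3 (-0.0113), and without the top 50 genes Fga (0.00409). With 1 library left out the log2 fold change ran from -0.0237 to 0.0608 for C3, -0.0808 to 0.0238 for Cfb, -0.0671 to 0.0130 for Kng1, -0.0519 to 0.0332 for Fga, -0.0282 to 0.0629 for Fgb and -0.0619 to 0.0161 for Fgg. The labels do not say that replicate numbers pair the samples, so they were not taken as pairs in the main fit. Deviations of same-numbered libraries correlated at -0.0246 to 0.204. KO replicates 1, 3 and 5 correlated best with the WT library of their own number, and KO replicates 2 and 4 with another. These values do not settle whether the samples are paired. Under the block, 4 complement and 4 coagulation members had an unadjusted p under 0.05, against 2 and 2 without it, while over all genes 403 were higher and 1111 lower with the block, against 334 and 1124 without it. Without counts, the depth sets no interval on a single value, and 5 samples a group limit the precision.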
